A study of Homo sapiens with 12 samples.

Results

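Forkhead (FOX) transcription factors share a winged-helix DNA-binding domain. The genes were taken as all protein-coding genes named FOX, one letter from A to S and a number, with the FOXD4-like copies left out. 45 such genes were found among the 58347 genes of the count tables, and 26 of them had enough reads to be tested among 16740 genes in all. The cells were A375, a human melanoma line that carries mutant BRAF, and their RNA was read after 8 h with DMSO, tretinoin, vemurafenib or the combination of tretinoin and vemurafenib, with 3 samples in each of the 4 groups. The labels give 5 µM for every group, DMSO included, and do not say whether the combination held that dose of each drug. DMSO is the solvent control, tretinoin is all-trans retinoic acid, which activates retinoic acid receptors, and vemurafenib inhibits mutant BRAF and so lowers signalling to ERK. A375 is a single cultured line, and the samples are named as a triplicate without saying whether these were separate cultures, so p-values measure the spread between these samples, which may be technical.

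Forkhead factors take part in cell identity, cell cycle and survival. FOXD3 is known for its role in the neural crest, from which melanocytes come, and FOXC1 and FOXC2 for mesoderm and neural crest derivatives. The FOXO proteins are restrained by phosphorylation through AKT, which keeps them out of the nucleus, and FOXM1 drives genes of the G2 and M phases. RNA counts show the transcript only, not the protein, its phosphorylation or its place in the cell.

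The libraries held 13510235 to 21534377 assigned counts. 19 of 19 listed ERK pathway output genes tested were lower with vemurafenib (SPRY4, log2 fold change -6.55 ± 0.157 (SE)), beside 26.3% of all tested genes. 5 of 11 retinoid response genes were higher with tretinoin (DHRS3, 2.91 ± 0.0936), beside 3.48% of all tested genes. Of these retinoid genes, 0 were lower with the edgeR test, with both DESeq2 settings and at an unadjusted p under 0.05. Of 9 melanocyte lineage markers, 5 were tested and SOX10 was listed at 0 in every sample, TYR at 1 count or fewer, and MLANA at 19 or fewer. The summed level of the melanocyte markers was 38.3 to 43.0 CPM (counts scaled to library size) in the DMSO samples and 55.5 to 58.2 with vemurafenib. Summed levels of 5 fibroblast markers were 15.5 to 18.1 and 48.3 to 50.6 in the same groups, and those of 5 keratinocyte or epithelial markers were 12.6 to 16.8 and 29.4 to 32.3. Not every marker in these 3 sums rose. With vemurafenib 2 of 5 tested melanocyte, 3 of 4 fibroblast and 1 of 2 keratinocyte or epithelial markers were called higher and 0 lower. Of all tested genes 26.4% were called higher there. The sum of 3 endothelial markers was 5.28 to 6.55 with DMSO, 12.7 to 17.2 with tretinoin, 2.4 to 3.17 with vemurafenib and 5.34 to 6.2 with the combination. That of 4 immune markers was 1.03 to 2.9, 2.52 to 4.77, 3.17 to 3.91 and 3.72 to 5.28 in the same order. Within the endothelial sum, CDH5 changed by -4.96 ± 0.34 and VWF by 2.13 ± 0.485 (log2, SE) with vemurafenib, while the other marker was not called. The part of all these marker sets in the results that follow was not tested. In bulk RNA, fewer cells with a transcript and less transcript per cell cannot be told apart.

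Per length of exon, FOXM1 was the most abundant forkhead transcript of the DMSO samples, at 33.7 ± 2.74 (SD, n = 3) CPM per kilobase of exon, a length-adjusted level. FOXD1, a regulator of kidney stroma and neural development, followed at 17.1 ± 1.66. The next places went to FOXJ3 (10.5 ± 0.632) and FOXK2 (9.8 ± 0.407), and then to FOXC1 (8.33 ± 0.443), FOXC2 (8.2 ± 1.15), FOXF2 (7.88 ± 0.686) and FOXP4 (7.64 ± 0.221), whose levels lay within the SD of FOXC2. FOXD3 was in place 13 at 2.79 ± 0.462. With vemurafenib, FOXD3 stood in place 2 at 33.8, next to FOXM1 at 35.6, and with the combination FOXD3 was at 38.5 ± 2.34 and FOXM1 at 34.2 ± 3.18, while FOXC2 went from place 6 with DMSO to place 20 with vemurafenib, at 0.542. FOXD4, FOXL1, FOXP2 and FOXP1 were all at or under 0.248 on this scale, so their counts were small.

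**Figure D1:**
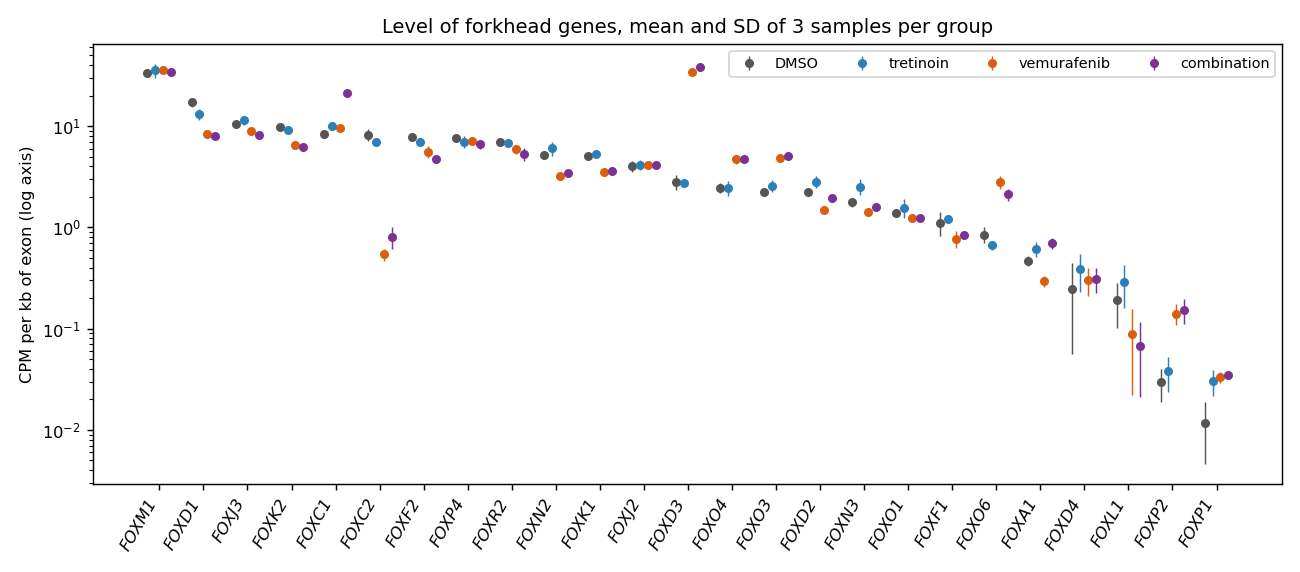
Length-adjusted level of 25 tested forkhead genes (CPM per kilobase of exon, log axis) in the 4 groups, as the mean and SD of 3 samples, in the order of the DMSO level. FOXM1 is near the top in every group, FOXD3 moves from 2.79 with DMSO to 33.8 with vemurafenib, and FOXC2 from 8.2 to 0.542.

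With vemurafenib, 7 of the 26 forkhead genes rose and 11 fell against DMSO, where 26.4% of all tested genes rose and 26.3% fell. The risers were FOXD3, FOXP2, FOXO6, FOXP1, FOXO3, FOXO4 and FOXC1. The genes that fell were FOXC2, FOXD1, FOXN2, FOXA1, FOXK2, FOXD2, FOXF1, FOXK1, FOXF2, FOXN3 and FOXJ3. The median log2 fold change of the 26 was -0.20, beside 0.02 over all genes tested. When libraries were scaled by their totals alone, which raised the median of all genes by 0.19, the counts became 8 higher and 7 lower, and the share of all calls that were higher went from 50.1% to 71.4%.

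With the combination, 8 forkhead genes rose and 9 fell against DMSO, beside 27.1% and 26.5% of all tested genes, with a median log2 fold change of -0.16 against 0.03 for all genes tested. 14 genes passed the test in the same direction in both comparisons, 7 up and 7 down. These comparisons share the DMSO samples, so the match is no separate evidence, and the matching share of all tested genes is not given here. FOXA1 was the 1 gene called in opposite directions. Scaling by totals gave 8 higher and 6 lower here, and moved the share of all calls that were higher from 50.5% to 68.2%.

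**Figure D2:**
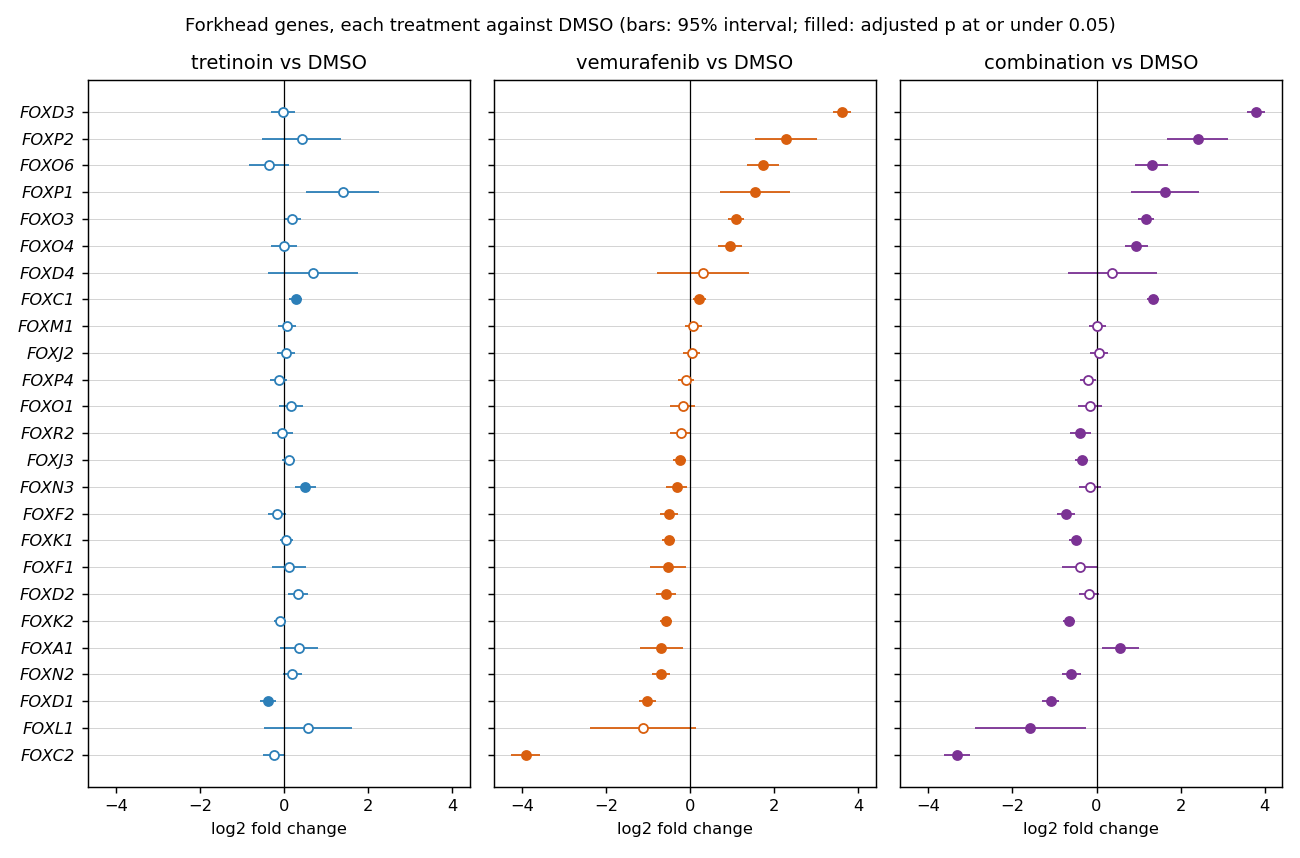
Log2 fold change against DMSO of 25 tested forkhead genes with tretinoin, vemurafenib and the combination (points, filled where the adjusted p was under 0.05), with 95% intervals. FOXD3 (3.61 with vemurafenib) and FOXC2 (-3.91) lie farthest from 0, the tretinoin values lie closer to 0 for most genes, and FOXC1 is at 1.34 with the combination.

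FOXD3 and FOXC2, which both act in the neural crest and its derivatives, made the largest moves of the family and went opposite ways. FOXD3 had normalised read counts (counts scaled to a common library size) of 123, 104 and 88.7 in the DMSO samples, 102, 108 and 98 with tretinoin, 1364, 1242 and 1215 with vemurafenib and 1486, 1518 and 1351 with the combination. All 6 samples with vemurafenib, alone or combined, lay above every DMSO and tretinoin sample, and the combination values overlapped those of vemurafenib. Against DMSO this was a log2 fold change of 3.61 ± 0.104 (SE, adjusted p = 1.76e-14), 12.2-fold, with vemurafenib and a log2 fold change of 3.79 ± 0.104 (SE, adjusted p = 9.18e-15) with the combination. Its rise with vemurafenib had rank 64 among the 16740 genes tested.

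FOXD3-AS1, a noncoding gene on the other strand whose exons share 179 bases with the 2086 exon bases of FOXD3, moved with it. Its raw counts were 50, 63 and 33 with DMSO and 285, 274 and 232 with vemurafenib, a log2 fold change of 2.22 ± 0.2 (SE, adjusted p = 6.01e-08). The counting ignored strand, so reads from the shared 8.58% of FOXD3 exon cannot be assigned to either gene.

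The promoter of FOXD3 is shown because no forkhead gene rose more. These are the 250 bases before its RefSeq start on GRCh38.p14, chr1:63322317-63322566, plus strand, with capitals for a GC box (GGGCGG) at 201 to 196 bases before the start and an E-box (CACGTG) at 56 to 51 bases before it. GENCODE 29 places the start of the gene further on, at base 63323041.
FOXD3: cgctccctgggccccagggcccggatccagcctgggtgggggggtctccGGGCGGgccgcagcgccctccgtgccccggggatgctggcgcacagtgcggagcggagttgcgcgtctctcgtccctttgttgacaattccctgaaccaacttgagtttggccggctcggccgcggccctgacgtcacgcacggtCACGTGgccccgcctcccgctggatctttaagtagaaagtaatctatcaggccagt

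FOXC2 had 367, 487 and 435 in the DMSO samples, 370, 364 and 354 with tretinoin, 32.8, 25.2 and 27.1 with vemurafenib and 33.8, 54.6 and 39.3 with the combination. The 6 samples without vemurafenib and the 6 with it did not overlap. The fall was a log2 fold change of -3.91 ± 0.164 (SE, adjusted p = 2.43e-12) with vemurafenib, 15.1-fold, and a log2 fold change of -3.32 ± 0.15 (SE, adjusted p = 6.78e-12) with the combination, 9.99-fold. The combination samples lay above the vemurafenib samples, at 42.5 ± 10.8 against 28.4 ± 3.97 (SD, n = 3), but the difference of 0.59 ± 0.215 did not pass the test (adjusted p = 0.164). FOXC2 had rank 24 of the falls among all genes tested. Its antisense neighbour FOXC2-AS1, which shares 5.0% of its exon bases, had at most 6 counts in any sample and was not tested.

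Of 15 tested factors on a list of neural crest and melanocyte regulators, vemurafenib raised 4 and lowered 6, and the combination raised 3 and lowered 7 (median log2 fold change -0.23 and -0.24). The 4 of 15 higher are near the 26.4% of all tested genes called higher with vemurafenib, and 26.3% were lower there, while the combination had 27.1% and 26.5%. SNAI2, a repressor of epithelial genes, rose by 3.54 ± 0.195 (log2, SE) and MSX1, a homeobox factor of the neural plate border, changed by -1.39 ± 0.0845 with vemurafenib. MITF, the melanocyte master regulator, had 261 to 307 raw counts with DMSO and 539 to 658 with vemurafenib.

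FOXO genes encode factors that induce genes for cell cycle arrest, stress resistance and the dampening of growth factor signals. 3 of the 4, FOXO3, FOXO4 and FOXO6, rose with vemurafenib and with the combination, where 26.4% and 27.1% of all tested genes rose. FOXO1 was not called in any comparison. FOXO3 had 288, 323 and 327 in the DMSO samples, 413, 318 and 350 with tretinoin, 653, 674 and 682 with vemurafenib and 676, 696 and 748 with the combination. Every sample with vemurafenib was above every sample without it. The change was a log2 fold change of 1.10 ± 0.0937 (SE, adjusted p = 3.2e-08) with vemurafenib and a log2 fold change of 1.18 ± 0.0933 (SE, adjusted p = 1.1e-08) with the combination.

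FOXO4 had 162, 165 and 133 in the DMSO samples, 171, 166 and 122 with tretinoin, 327, 267 and 290 with vemurafenib and 286, 280 and 317 with the combination. The groups with vemurafenib did not overlap those without, and vemurafenib alone and combined were alike in mean, 294 ± 30.1 and 294 ± 19.7. Against DMSO the change was 0.95 ± 0.131 (adjusted p = 1.01e-05) and 0.95 ± 0.131 (adjusted p = 9.11e-06), and the difference between the 2 groups had a 95% interval of -0.25 to 0.25 on the log2 scale.

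FOXO6, the least abundant FOXO gene per length in the DMSO samples, had 44.3, 31.7 and 34.3 in the DMSO samples, 29.1, 31.5 and 25.7 with tretinoin, 142, 118 and 106 with vemurafenib and 94.5, 78.1 and 101 with the combination. The rise was a log2 fold change of 1.73 ± 0.183 (SE, adjusted p = 4.33e-07) with vemurafenib and a log2 fold change of 1.31 ± 0.187 (SE, adjusted p = 1.42e-05) with the combination. All combination samples were below all vemurafenib samples, with a difference of -0.42 ± 0.156 that did not pass the test (adjusted p = 0.175). FOXO1 averaged 156 ± 12.3, 176 ± 36.4, 138 ± 9.07 and 139 ± 4.94 in the DMSO, tretinoin, vemurafenib and combination groups, and its difference between vemurafenib and DMSO had a 95% interval of -0.47 to 0.11 (log2).

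The FOXO6 promoter shows how GC-rich these starts can be: 81.6% of the 250 bases before its RefSeq start were G or C, beside a median of 58.0% over the 35116 promoters of the table and 67.6% over the 45 forkhead promoters there. The stretch is chr1:41361184-41361433 of GRCh38.p14, plus strand, with capitals for GC boxes on either strand.
FOXO6: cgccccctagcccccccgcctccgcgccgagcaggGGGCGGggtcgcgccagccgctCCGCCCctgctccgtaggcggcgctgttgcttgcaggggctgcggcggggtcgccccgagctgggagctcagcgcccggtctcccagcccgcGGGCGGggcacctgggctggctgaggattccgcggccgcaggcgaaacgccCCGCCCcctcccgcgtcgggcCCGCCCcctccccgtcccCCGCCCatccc

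FOXO3 shares up to 1928 bases of exon at 99.2% identity with FOXO3B, a near-identical copy, so reads could be split between them. FOXO3B had 104 to 177 raw counts in the 12 samples and a log2 fold change of 0.05 with vemurafenib, so the count given to the copy did not follow FOXO3.

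Of 25 tested genes listed as FOXO targets, 16 were higher and 4 lower under vemurafenib, while the combination gave 14 and 6, with median log2 fold changes of 0.60 and 0.59, beside 0.02 and 0.03 over all tested genes. Of all tested genes 26.4% were higher and 26.3% lower under vemurafenib, and 27.1% and 26.5% under the combination. TXNIP, which limits glucose uptake, changed by 3.10 ± 0.0861 (log2, SE) and SESN3, a stress-induced inhibitor of mTORC1, by 2.67 ± 0.135 with vemurafenib. With tretinoin, PDK4, a brake on pyruvate oxidation, changed by 1.10 ± 0.129 and IRS2, an adaptor of the insulin receptor, by -0.60 ± 0.101, both past the test. The list holds genes with many other regulators, and its counts do not say that FOXO proteins acted. Of 24 tested genes for kinases, phosphoserine-binding adaptors and other regulators of FOXO, 14 fell and 1 rose with vemurafenib, and 16 fell and 2 rose with the combination, but with scaling by total counts these became 6 and 7, and 9 and 6. CDK2 changed by -1.10 ± 0.0885 and SGK1, a kinase that phosphorylates FOXO3, by -0.87 ± 0.0901 with vemurafenib.

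**Figure D3:**
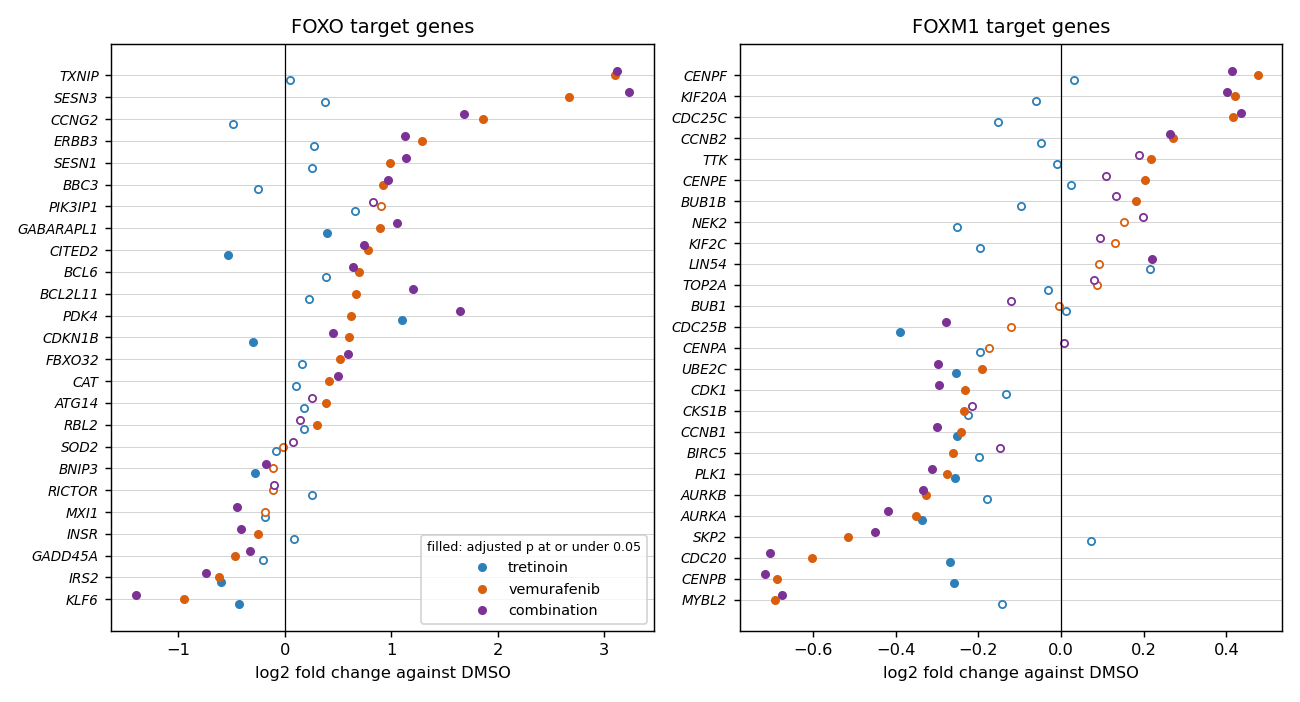
Log2 fold change against DMSO of each tested gene on the lists of FOXO targets (left, 25 genes) and FOXM1 targets, with partners of FOXM1 (right, 26 genes). Points are for tretinoin, vemurafenib and the combination, filled where the adjusted p was under 0.05. The panels have different x axes: FOXO targets run from -1.40 (KLF6) to 3.23 (SESN3), both with the combination, and FOXM1 targets from -0.72 (CENPB, combination) to 0.48 (CENPF, vemurafenib).

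FOXM1, the highest forkhead gene per length in the DMSO samples, was not called in any of the 6 comparisons. It had 2939, 2770 and 3248 in the DMSO samples, 3636, 3132 and 2662 with tretinoin, 3283, 3161 and 2999 with vemurafenib and 2739, 3042 and 3301 with the combination, with all groups overlapping. Its difference from DMSO was 0.08 ± 0.0987 with vemurafenib (95% interval -0.13 to 0.28), 0.02 ± 0.0987 with the combination (-0.19 to 0.23) and 0.07 ± 0.099 with tretinoin (-0.14 to 0.28). With scaling by total counts the vemurafenib value was 0.27 and passed the test (adjusted p = 0.041). FOXM1 shares 15.94% of its exon bases with ITFG2 on the other strand, a gene with 196 to 439 raw counts against 2269 to 4035 for FOXM1.

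The list of FOXM1 targets also holds partners of FOXM1, and its genes moved in both directions and by less. Of 26, 7 were higher and 12 lower under vemurafenib, while the combination gave 5 and 11, with medians of -0.15 and -0.14, but with scaling by total counts the counts were 11 higher and 5 lower, and 11 and 7. Over all tested genes 26.4% were higher and 26.3% lower under vemurafenib, and 27.1% and 26.5% under the combination, so the 7 of 26 higher are near the share of all genes. MYBL2, a cell cycle transcription factor, changed by -0.69 ± 0.0646 and CENPB, a centromere protein, by -0.69 ± 0.0743 with vemurafenib. With tretinoin, 7 were lower and 0 higher, beside 2.2% and 3.48% of all tested genes at the same threshold, and DESeq2 called 0 higher. The 7 lower became 1 with only the compared groups in the fit and 2 with scaling by total counts. At an unadjusted p under 0.05 there were 14 lower and 1 higher with tretinoin. No share of all genes is given for that threshold, so whether these counts exceed it cannot be said. CDC25B, a mitotic phosphatase, changed by -0.39 ± 0.0667 and AURKA, a mitotic kinase, by -0.34 ± 0.0624. Leaving out single DMSO or tretinoin samples took the 7 to between 2 and 7, with 2 without DMSO replicate 2 or 3 or tretinoin replicate 2 and 4 without tretinoin replicate 1.

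FOXP1 and FOXP2 encode transcriptional repressors that take part in neural and immune development, and both rose from low counts. FOXP2 had 6.99, 12.2 and 6.67 in the DMSO samples, 6.62, 14.7 and 11.9 with tretinoin, 44.1, 48.7 and 30.4 with vemurafenib and 35.8, 40.3 and 58.9 with the combination. The rise was a log2 fold change of 2.27 ± 0.352 (SE, adjusted p = 3.51e-05) with vemurafenib and a log2 fold change of 2.40 ± 0.345 (SE, adjusted p = 1.52e-05) with the combination. FOXP1 had 8.15, 12.2 and 2.86 in the DMSO samples, 26.5, 18.9 and 14.8 with tretinoin, 20.6, 20.0 and 25.0 with vemurafenib and 24.9, 21.8 and 22.9 with the combination, which is 3 to 28 raw counts per sample. It rose by 1.54 ± 0.396 with vemurafenib (adjusted p = 0.00342) and 1.63 ± 0.388 with the combination (adjusted p = 0.00188). All tretinoin samples also lay above all DMSO samples, at 1.40 ± 0.41, which did not pass the test (adjusted p = 0.0545). Among the other settings, this difference passed with scaling by total counts (adjusted p = 0.0452) and without the low-count filter (0.0309). It also passed without DMSO replicate 2 (0.046) and without tretinoin replicate 3 (0.0383). GENCODE 29 lists AC097634.4, on the same strand, over 2539 of the 36714 exon bases of FOXP1, and its reads were not analysed here. FOXP4, of the same subfamily, averaged 852 ± 24.7 with DMSO and 795 ± 36.3 with vemurafenib and was not called.

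**Figure D4:**
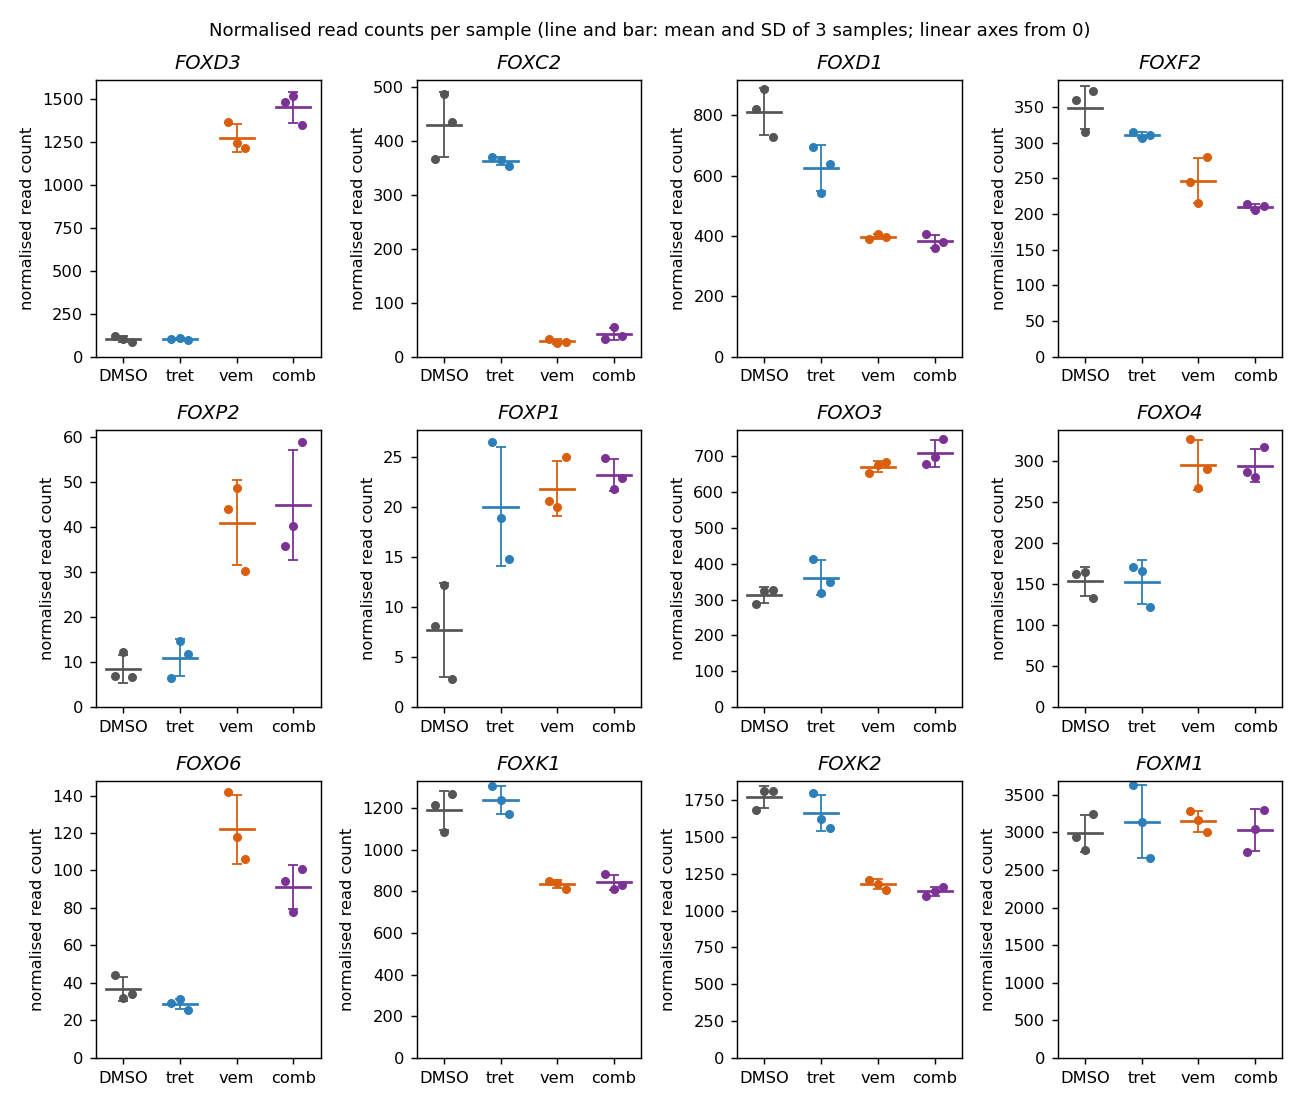
Normalised read count per sample (linear axes from 0) of 12 forkhead genes with DMSO, tretinoin (tret), vemurafenib (vem) and the combination (comb), with the mean and SD of 3 samples. FOXD3, FOXP2, FOXO3, FOXO4 and FOXO6 are higher in all 6 samples with vemurafenib than in the 6 without, FOXC2, FOXD1, FOXK1 and FOXK2 are lower in all 6, and FOXM1 overlaps in all groups.

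FOXK1 and FOXK2, which regulate metabolism and autophagy genes, both fell with vemurafenib and with the combination. FOXK1 had 1215, 1085 and 1269 in the DMSO samples, 1306, 1241 and 1174 with tretinoin, 848, 842 and 814 with vemurafenib and 885, 811 and 833 with the combination. FOXK2 had 1685, 1814 and 1811 in the DMSO samples, 1799, 1623 and 1561 with tretinoin, 1209, 1184 and 1143 with vemurafenib and 1096, 1134 and 1162 with the combination. In both genes the 6 samples with vemurafenib were below the other 6. With vemurafenib the change was a log2 fold change of -0.51 ± 0.0731 (SE, adjusted p = 1.46e-05) for FOXK1 and -0.59 ± 0.0681 (adjusted p = 1.36e-06) for FOXK2, and with the combination it was -0.50 ± 0.0728 (adjusted p = 1.79e-05) and -0.65 ± 0.068 (adjusted p = 4.05e-07).

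FOXD1 and FOXD2 are relatives of FOXD3, and both fell with vemurafenib, where FOXD3 rose. FOXD1 had 821, 886 and 729 in the DMSO samples, 694, 544 and 640 with tretinoin, 391, 407 and 396 with vemurafenib and 405, 361 and 380 with the combination. The DMSO samples were highest, the tretinoin samples were next without overlap, and the vemurafenib and combination samples overlapped each other at the bottom. The change was a log2 fold change of -1.03 ± 0.0958 (SE, adjusted p = 9.4e-08) with vemurafenib and a log2 fold change of -1.09 ± 0.0955 (SE, adjusted p = 4.18e-08) with the combination. FOXD2 had 184, 189 and 193 in the DMSO samples, 274, 214 and 229 with tretinoin, 118, 126 and 135 with vemurafenib and 161, 172 and 164 with the combination. With vemurafenib it fell (-0.58 ± 0.115, adjusted p = 0.000397), while with the combination the difference of -0.19 ± 0.111 did not pass (adjusted p = 0.163) and the difference between the combination and tretinoin was -0.52 ± 0.108 (adjusted p = 0.000646). Its noncoding neighbour FOXD2-AS1 fell with vemurafenib too, by 0.75 on the log2 scale.

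FOXF2, FOXF1 and FOXL1, factors of mesenchyme, were lower with vemurafenib in part. FOXF2 had 360, 315 and 373 in the DMSO samples, 315, 307 and 311 with tretinoin, 245, 216 and 280 with vemurafenib and 214, 206 and 211 with the combination. It fell by 0.51 on the log2 scale with vemurafenib (adjusted p = 0.000446) and by 0.74 with the combination (adjusted p = 1.06e-05). FOXF1 had 89.7, 69.6 and 52.4 in the DMSO samples, 79.5, 72.5 and 76.2 with tretinoin, 38.5, 56.5 and 51.0 with vemurafenib and 52.7, 51.2 and 54.8 with the combination. Its vemurafenib and DMSO samples overlapped, the change of -0.52 ± 0.202 passed narrowly (adjusted p = 0.0389), and 10 of 14 other settings lost that call, those without DMSO replicate 1 (0.223) or 2 (0.0715) and without vemurafenib replicate 1 (0.167) or 3 (0.0605) among them. FOXL1 had 8.15, 11 and 20.0 in the DMSO samples, 10.6, 28.4 and 19.8 with tretinoin, 0.939, 9.56 and 7.6 with vemurafenib and 7.95, 4.2 and 1.64 with the combination, which is 1 to 27 raw counts. Its difference from DMSO was -1.13 ± 0.597 with vemurafenib, which did not pass (adjusted p = 0.121), and -1.57 ± 0.623 with the combination, which did (adjusted p = 0.0413) but lost the call in 7 other settings, including those without DMSO replicate 2 (0.0565) or 3 (0.237) and without combination replicate 2 (0.098) or 3 (0.16).

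FOXN2 and FOXJ3 fell with vemurafenib and with the combination, and FOXR2 fell with the combination. FOXN2 had 498, 491 and 555 in the DMSO samples, 698, 558 and 530 with tretinoin, 344, 319 and 288 with vemurafenib and 318, 343 and 353 with the combination. The change was -0.70 ± 0.107 with vemurafenib (adjusted p = 2.94e-05) and -0.61 ± 0.105 with the combination (adjusted p = 0.000109). FOXJ3 had 1284, 1239 and 1392 in the DMSO samples, 1584, 1362 and 1310 with tretinoin, 1120, 1083 and 1105 with vemurafenib and 1032, 1027 and 1003 with the combination. Every vemurafenib and combination sample was below every DMSO sample, at -0.24 ± 0.0748 (adjusted p = 0.011) and -0.36 ± 0.0748 (adjusted p = 0.000655), and scaling by total counts ended both calls (adjusted p = 0.638 and 0.063). The first was also lost without DMSO replicate 3 (0.0545). FOXR2 had 227, 254 and 242 in the DMSO samples, 248, 233 and 224 with tretinoin, 228, 203 and 185 with vemurafenib and 155, 186 and 209 with the combination. It was lower with the combination than with DMSO, at -0.39 ± 0.117 (adjusted p = 0.0096), and not called with vemurafenib alone, at -0.23 ± 0.117 (adjusted p = 0.11), while the difference between these 2 groups was -0.16 ± 0.117 (adjusted p = 0.627). The combination call was lost with scaling by total counts (adjusted p = 0.118) and without combination replicate 1 (0.0521).

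With tretinoin alone, 2 of the 26 forkhead genes rose against DMSO, FOXC1 and FOXN3, and 1 fell, FOXD1, beside 3.48% and 2.2% of all tested genes. With scaling by totals 3 rose and 0 fell, and the share of all calls that were higher went from 61.3% to 81.3%. FOXN3, a repressor that acts at cell cycle checkpoints, had 317, 353 and 389 in the DMSO samples, 600, 495 and 418 with tretinoin, 264, 276 and 309 with vemurafenib and 331, 296 and 326 with the combination. The tretinoin samples were all above the others, by a log2 fold change of 0.50 ± 0.119 (SE, adjusted p = 0.0188) against DMSO. With vemurafenib FOXN3 was lower instead (-0.32 ± 0.123, adjusted p = 0.0343), a call lost in 7 of 14 other settings, among them those without DMSO replicate 2 (0.0648) or 3 (0.143) or vemurafenib replicate 1 (0.112) or 2 (0.0865). For FOXN3 the difference between the combination and tretinoin was -0.66 (adjusted p = 0.000166). FOXD1 changed by -0.38 with tretinoin (adjusted p = 0.0254). Each of the 3 tretinoin calls was lost when 1 sample was left out: FOXN3 without DMSO replicate 1 (adjusted p = 0.072) or 2 (0.0751), FOXC1 without DMSO replicate 2 (0.106) or 3 (0.1) or tretinoin replicate 1 (0.0686), and FOXD1 without DMSO replicate 1 (0.0649) or 2 (0.14) or tretinoin replicate 2 (0.0964).

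When tretinoin was added to vemurafenib, 2 forkhead genes rose, FOXC1 and FOXA1, and 0 fell, beside 2.27% and 2.2% of all tested genes. At an unadjusted p under 0.05 there were 5 higher and 2 lower, and DESeq2 also called 2 and 0. No share of all tested genes at that unadjusted threshold is given here, so the 5 and 2 show no excess. FOXC1, which acts in the development of the eye, vessels and neural crest derivatives, had 625, 585 and 564 in the DMSO samples, 759, 679 and 713 with tretinoin, 702, 692 and 663 with vemurafenib and 1454, 1504 and 1537 with the combination. The 3 combination samples were above the other 9, which spanned 564 to 759. The combination had a log2 fold change of 1.13 ± 0.0682 (SE, adjusted p = 7.03e-09) against vemurafenib, 1.06 ± 0.0685 (adjusted p = 8.59e-10) against tretinoin and 1.34 ± 0.0695 (adjusted p = 4.36e-11) against DMSO. Each drug alone gave less against DMSO, 0.28 ± 0.0715 with tretinoin (adjusted p = 0.03) and 0.22 ± 0.071 with vemurafenib (adjusted p = 0.0167). The vemurafenib call was lost without DMSO replicate 3 (adjusted p = 0.0873) and without vemurafenib replicate 1 (0.0621) or 2 (0.0548).

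The difference between the tretinoin effect with and without vemurafenib, tested as an interaction, was 0.85 ± 0.0985 on the log2 scale for FOXC1 (95% interval 0.64 to 1.06, adjusted p = 0.000467), so the combination exceeded the sum of the log2 effects. It was the only one of the 26 forkhead genes called in that test, where 0.382% of all tested genes were called higher and 0.424% lower (with scaling by totals, the share of calls that were higher went from 47.4% to 21.4%). 4 forkhead genes were higher and 2 lower at an unadjusted p under 0.05, and DESeq2 called 1 and 0. The share of all tested genes at that unadjusted threshold is not given here, so the 4 and 2 show no excess. The FOXC1 interaction passed the test in all 19 other settings, at 0.74 to 0.89.

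The FOXC1 promoter is printed because of this response and was chosen after its values were seen. The stretch is chr6:1609665-1609914 of GRCh38.p14, plus strand, the 250 bases before the RefSeq start, with capitals for 2 GC boxes and for an ETS core (CCGGAA) at 49 to 44 bases before the start. No retinoic acid receptor half-site (AGGTCA or AGTTCA, either strand) lies in it, which says only that these letters are absent from this window.
FOXC1: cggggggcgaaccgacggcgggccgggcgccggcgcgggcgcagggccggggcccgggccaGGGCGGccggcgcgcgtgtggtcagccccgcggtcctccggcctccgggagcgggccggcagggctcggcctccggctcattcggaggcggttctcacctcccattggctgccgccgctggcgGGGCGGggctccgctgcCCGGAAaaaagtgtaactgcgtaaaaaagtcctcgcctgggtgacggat

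FOXA1, a pioneer factor of endoderm and hormone-responsive tissues, was low, at 21 to 70 raw counts. It had 31.4, 31.7 and 38.1 in the DMSO samples, 45.0, 35.7 and 50.5 with tretinoin, 22.5, 18.3 and 22.8 with vemurafenib and 46.7, 46.2 and 57.3 with the combination. The vemurafenib samples were lowest and all below DMSO, and the combination samples were all above both. With vemurafenib it fell by 0.69 on the log2 scale (adjusted p = 0.0226), with the combination it rose by 0.56 ± 0.208 (adjusted p = 0.0306), and the combination exceeded vemurafenib by 1.25 ± 0.219 (adjusted p = 0.00167). The first of these calls was lost in 6 of 14 other settings, including those without DMSO replicate 3 (0.0945) or vemurafenib replicate 2 (0.0883). The second was lost in 6 of 14, including those without DMSO replicate 1 (0.0873) or 2 (0.0807) or combination replicate 3 (0.132), while the third held in all 14. Its interaction was 0.88 ± 0.311, which did not pass (adjusted p = 0.211), and tretinoin alone gave 0.36 ± 0.218 (adjusted p = 0.336).

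**Figure D5:**
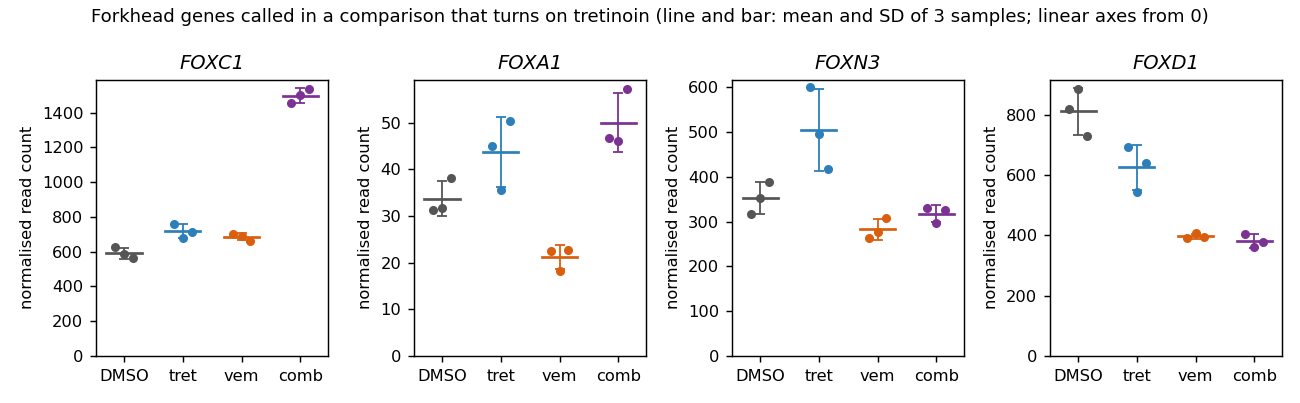
Normalised read count per sample (linear axes from 0) of the forkhead genes called in a comparison of tretinoin with DMSO or of the combination with vemurafenib, with the mean and SD of 3 samples. FOXC1 is at 1454 to 1537 with the combination and at 564 to 759 in the other 9 samples, FOXA1 is highest in the combination group by mean (50.1) and lowest with vemurafenib (21.2), and FOXN3 is highest with tretinoin.

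Against tretinoin alone, the combination had 6 forkhead genes higher and 12 lower, beside 24.1% and 25.0% of all tested genes. Scaling by totals gave 6 and 10, and moved the share of all calls that were higher from 49.0% to 60.7%. The 6 were FOXC1, FOXD3, FOXO3, FOXO4, FOXO6 and FOXP2, and the 12 were FOXC2, FOXD1, FOXD2, FOXF1, FOXF2, FOXJ3, FOXK1, FOXK2, FOXL1, FOXN2, FOXN3 and FOXR2. FOXD3 was the highest of the differences, at 3.82 ± 0.104 (log2, SE), and FOXC2 the lowest, at -3.08 ± 0.152. The FOXF1 difference lost its call without any 1 of the tretinoin or combination samples (adjusted p from 0.0509 to 0.0863), and that of FOXR2 without combination replicate 1 (0.103) and with scaling by total counts (0.0819).

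FOXM1, FOXO1, FOXP4, FOXJ2 and FOXD4 were called in none of the 6 comparisons. FOXJ2 averaged 455 ± 58.9, 471 ± 54.1, 465 ± 14.8 and 474 ± 14.5 normalised read counts in the DMSO, tretinoin, vemurafenib and combination groups, and its vemurafenib difference had a 95% interval of -0.18 to 0.24. FOXD4 averaged 8.83 to 13.7, so only large changes could have been detected in it.

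The other 19 forkhead genes had too few reads to be tested. FOXP3 reached 10 counts in its highest sample, FOXA3 and FOXN1 reached 9, FOXI3 6 and FOXN4 4, while FOXH1 and FOXS1 reached 3. FOXE3, FOXJ1, FOXL2 and FOXQ1 reached 2, and FOXA2, FOXB1, FOXB2, FOXE1, FOXI1, FOXI2 and FOXR1 reached 1. FOXL3 had 0 counts in all 12 samples. These include markers of endoderm (FOXA2), regulatory T cells (FOXP3), thymus (FOXN1) and ciliated cells (FOXJ1).

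Position and structure were set beside these values as description. On GRCh38, GENCODE 29 places FOXD3 at chr1:63323041-63325126, FOXC2 at chr16:86566829-86569728 and FOXC1 at chr6:1609972-1613897, all on the plus strand. 14 of the 45 genes have a single exon in every protein-coding transcript of GENCODE 29, and 8 of these were tested. With vemurafenib 2 of these 8 rose and 3 fell, while of the 18 tested genes with several exons 5 rose and 8 fell. Of all tested genes 26.4% rose and 26.3% fell there, so the 2 of 8 and 5 of 18 that rose are near that share. Among the forkhead genes, FOXF1, FOXC2 and FOXL1 follow each other on chromosome 16, with gaps of 51.4 kb and 6.64 kb. Other genes in these gaps were not looked at. The vemurafenib values of FOXF1, FOXC2 and FOXL1 were -0.52, -3.91 and -1.13. That of FOXL1 was not called (adjusted p = 0.121), and the FOXF1 call held in only 4 of 14 other settings. On chromosome 6, FOXF2 and FOXC1 lie 214 kb apart, and their combination values went opposite ways, at -0.74 and 1.34. FOXQ1, 74.8 kb from FOXF2, had at most 2 counts.

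34 of the 45 genes had at least 1 promoter in the RefSeq table, and 20 of the 26 tested. FOXC2 was among the 6 tested genes without an entry. GC boxes were in 66.7% of the 45 forkhead promoters and in 42.6% of all promoters of that length, both strands searched. The forkhead core TGTTTAC was in 1 of the 45, an FOXP1 promoter, beside 2.98% of all. The retinoic acid receptor half-sites were in 13.3%, beside 19.7% of all, and the ETS core in 6.67%, beside 14.5%. The E-box CACGTG was in 6.67%, beside 6.34%, and the AP-1 site TGACTCA in 2.22%, an FOXO3 promoter, beside 4.2%. These matches are letters in a window and show no binding.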

How the data were processed

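RNA of A375 cells was sequenced as poly(A) libraries (paired reads) in 4 groups of 3 samples, taken from the GEO labels. Per the labels and the study's methods, the authors aligned reads with STAR 2.5.3a to GRCh38.p10 and deposited raw counts of fragments per GENCODE 27 gene, made in union mode with strand ignored, so a fragment in 2 overlapping genes was left out. The deposited counts are whole numbers, 13510235 to 21534377 per sample. Gene symbols, exon lengths and overlaps came from GENCODE 29, a later release, and FOXL3 from a newer symbol. Promoters came from RefSeq (GRCh38.p14).

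Counts were tested with edgeR 4.0.16 (quasi-likelihood test, R 4.3.3) on all 12 samples without a replicate term, after edgeR's filter on low counts by group (16740 of 58347 genes kept) and TMM scaling, with Benjamini-Hochberg adjustment over those genes and a threshold of 0.05. A call is an adjusted p at or under it. The 5 contrasts between groups and the interaction were taken from this fit. Normalised read counts are counts over the TMM-scaled library size times the mean of that size. Levels are TMM-scaled CPM per kilobase of merged exon. Shared exon sequence was found with blastn 2.17.0. The code was tested on simulated data.

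Alternatives were DESeq2 1.42.0 with and without shrinkage, scaling by total counts, testing without the filter on low counts or with a minimum of 10 in each library, fitting the compared groups alone, a replicate block and leaving out each sample. The list and level values under these, and some settings, were added after seeing the data. The members and gene lists were chosen with earlier results of these data known. Forkhead genes are named, except for results not reported here, which the counts still include. From each list up to 4 genes are named: the 2 largest called changes with vemurafenib and the 2 largest with tretinoin. MITF, CENPF and KLF6, and the FOXC1 promoter, fall outside this rule and were chosen after their values were seen. No interval covers more than the spread between these samples.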

Additional observations from a re-analysis of the deposited data

Results flagged for a closer look

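FOXC1 stands out because the effect of tretinoin differed with and without vemurafenib. The interaction in edgeR's quasi-likelihood test was 0.85 on the log2 scale. FOXC1 had 1498 ± 42.0 normalised read counts (SD, n = 3) with the combination, 717 ± 40.0 with tretinoin, 686 ± 20.0 with vemurafenib and 591 ± 31.4 with DMSO. The combination was higher in 3 of 3 samples than every sample of the other groups.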

How the results depend on the processing

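Of 59 forkhead calls, 45 held in every alternative run and 14 were lost in at least 1. None of 823 alternative values of these calls changed direction, 752 kept their call and 71 lost it. The cause of the changes was not tested.

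With only the compared groups in the fit, tretinoin gave 0 higher and 0 lower forkhead genes, FOXO regulators higher were 2 with vemurafenib and 4 with the combination, FOXM1 targets lower with tretinoin were 1 and retinoid genes higher were 3. With total counts only, forkhead genes lower were 0 with tretinoin and 7 with vemurafenib. FOXO targets lower were then 2 with vemurafenib and 3 with the combination, FOXO regulators 7 higher and 6 lower, and 6 and 9, and FOXM1 targets 11 higher and 5 lower, and 11 and 7, with 2 lower with tretinoin. The per-length vemurafenib levels were 37.8 for FOXM1 and 8.92 for FOXD1. Without the low-count filter the interaction gave 2 forkhead genes higher, and FOXM1 targets higher with vemurafenib were 4. With at least 10 counts in every sample, FOXO regulators higher with vemurafenib were 2 and FOXM1 targets higher with the combination 8.

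Leaving out 1 sample at a time gave 1 to 3 forkhead genes higher and 0 to 1 lower with tretinoin, FOXO regulators higher of 0 to 2 with vemurafenib and 1 to 2 with the combination, FOXM1 targets lower of 2 to 7 with tretinoin and higher of 4 to 6 with vemurafenib, and retinoid genes higher of 3 to 5 with tretinoin.

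Deviations from the group means were not shared between samples of equal replicate number (mean r = -0.0312 over 18 pairs), so the numbers were not taken as pairs. With a replicate block, 1 forkhead gene was higher with tretinoin and 3 FOXM1 targets were lower. The block ended the calls of FOXC1 with tretinoin (adjusted p = 0.0565), FOXN3 (0.0528) and FOXF1 (0.0555) with vemurafenib, and FOXF1 between the combination and tretinoin (0.0509). Low counts limit FOXP1, FOXP2, FOXL1 and FOXD4.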
